A study of Mus musculus with 9 samples.

Results

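Interferon-stimulated genes are the genes that a cell switches on when an interferon binds its receptor, and 36 of them were followed in mouse colonic tissue. They were chosen by gene name: 22 genes of the type I type, which include the Ifit, Oas and Mx families, and 14 genes of the gamma type, which include the Gbp and Irgm families and Cxcl9. All 36 had 1 entry each among the 55401 entries of the deposited table, and all 36 passed the filter, a mean of 1 FPKM or more, that left 14506 genes to test; the unit is FPKM, which scales fragment counts by transcript length and library size. The study sequenced poly(A) RNA from 9 libraries of wild-type mice in 3 groups of 3: berberine, a plant alkaloid, high-fat diet with AOM/DSS, and chow with AOM/DSS. AOM/DSS is the usual abbreviation of azoxymethane with dextran sulfate sodium, used together to induce colon tumours on a background of colitis. The labels call the first group berberine and give neither its diet nor whether it received AOM/DSS. They give no age or dose and do not tie the libraries to separate animals, so p-values measure the spread between these libraries, which may be technical.

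Type I interferons act through the receptor subunits Ifnar1 and Ifnar2 and a complex that includes Stat2 and Irf9, which binds the interferon-stimulated response element. Interferon gamma, made mainly by T cells and natural killer cells, acts through Ifngr1 and Ifngr2 and leads to binding at the gamma-activated site. The response elements are shared in part, so most of these genes answer to both kinds of interferon and the 2 classes mark a preference. In the colon, these genes are known for defence of the epithelium against viruses and intracellular microbes and for presenting peptides to T cells.

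The promoters were searched for the elements bound after interferon signalling. RefSeq promoter windows on build GRCm38.p6, from 250 bases before to 50 bases after the transcription start, were matched for 28 of the 36 genes, 16 of the type I type and 12 of the gamma type. Both strands were searched for GAAANNGAAA, the core of the interferon-stimulated response element, and for TTCNNNGAA, the core of the gamma-activated site; matches may overlap. The following stretches, cut from 8 of these windows around the matches, are shown because they hold matches of each kind and belong to genes whose values are given below. Each reads 5′ to 3′ on the gene's own strand, and capitals mark the matched bases, which are the reverse complement where the element lies on the opposite strand.
Isg15, chr4:156200850-156200921, minus strand: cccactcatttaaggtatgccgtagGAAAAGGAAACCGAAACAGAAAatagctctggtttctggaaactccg
Ifit1, chr19:34640760-34640838, plus strand: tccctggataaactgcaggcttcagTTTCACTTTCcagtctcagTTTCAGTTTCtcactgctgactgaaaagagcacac
Oas1a, chr5:120907526-120907648, minus strand: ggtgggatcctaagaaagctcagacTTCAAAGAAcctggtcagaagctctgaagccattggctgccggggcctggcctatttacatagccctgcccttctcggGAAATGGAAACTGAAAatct
Gbp2, chr3:142620579-142620638, plus strand: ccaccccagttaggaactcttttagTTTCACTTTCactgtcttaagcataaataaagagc
Igtp, chr11:58199486-58199555, plus strand: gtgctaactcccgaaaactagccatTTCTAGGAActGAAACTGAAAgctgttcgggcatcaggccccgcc
Irgm2, chr11:58214877-58214947, plus strand: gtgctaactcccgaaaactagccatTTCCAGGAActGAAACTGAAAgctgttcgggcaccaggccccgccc
Irf1, chr11:53769899-53769957, plus strand: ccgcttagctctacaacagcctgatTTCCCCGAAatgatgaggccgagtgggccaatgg
Psmb8, chr17:34198073-34198131, plus strand: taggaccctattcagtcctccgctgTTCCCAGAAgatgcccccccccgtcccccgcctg

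The response element core was found in 17 of the 28 promoters, 10 of 16 of the type I type and 7 of 12 of the gamma type, and in 3.99% of the 27025 genes with a window. The gamma-activated core was found in 8 of 28, which were 3 of 16 of the type I type and 5 of 12 of the gamma type, and in 9.55% of all genes. Isg15 held 3 overlapping response element matches. Igtp and Irgm2, whose entries in the deposited table overlap on chromosome 11, held both cores in the same order and spacing, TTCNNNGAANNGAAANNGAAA, which was found in 5 of the 27025 genes. The stretches shown for these 2 genes were identical at 68 of 70 positions, and the rest of their windows was not compared. The stretches of Irgm2 and Psmb8 lie wholly inside the entries measured here, which start at 58199618 and 34197721. For these genes the RefSeq start thus differs from that of the measured entry. A match describes these letters only and does not show that a factor binds there.

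Library totals were similar, from 51961764 to 69007117 estimated counts. All 13 colon epithelium markers were detected, with summed levels of 5168 to 6278 FPKM in berberine libraries, 4013 to 5256 FPKM in high-fat diet libraries and 6325 to 9960 FPKM in chow libraries. Some libraries stood apart in tissue content: the 5 adipocyte markers summed to 170 and 144 FPKM in berberine replicates 1 and 2 and to at most 25.9 FPKM elsewhere. The 5 striated muscle markers reached 323 FPKM in chow replicate 3. The 5 squamous epithelium markers summed to 70.7, 61.5 and 21.2 FPKM in high-fat diet libraries and 135 FPKM in chow replicate 1, and to at most 8.96 FPKM elsewhere. High-fat diet libraries differed from the other groups in tissue content as well. As a mean of log2(FPKM + 1), the colon epithelium markers stood at 7.73 to 8.15 in berberine libraries, 6.45 to 7.00 in high-fat diet libraries and 8.10 to 8.69 in chow libraries. The 6 neutrophil markers stood at 3.10 and 3.01 in high-fat diet replicates 1 and 2 and at 1.43 to 1.82 in the other libraries. Summed, they did not set these libraries apart, at 123 and 163 FPKM, against 50.5 to 172 FPKM in the others. In the same 2 high-fat diet libraries the 6 smooth muscle markers summed to 406 and 598 FPKM, against 1163 FPKM or more elsewhere. The high-fat diet group thus moved in tissue markers as well as in the genes described below, and the part of tissue content in those results was not tested. For the 36 genes, berberine replicate 1 was the library that stood apart, and the main gamma type results are followed by values without it. In bulk tissue, fewer cells of a type and less RNA per cell cannot be told apart.

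**Figure D1:**
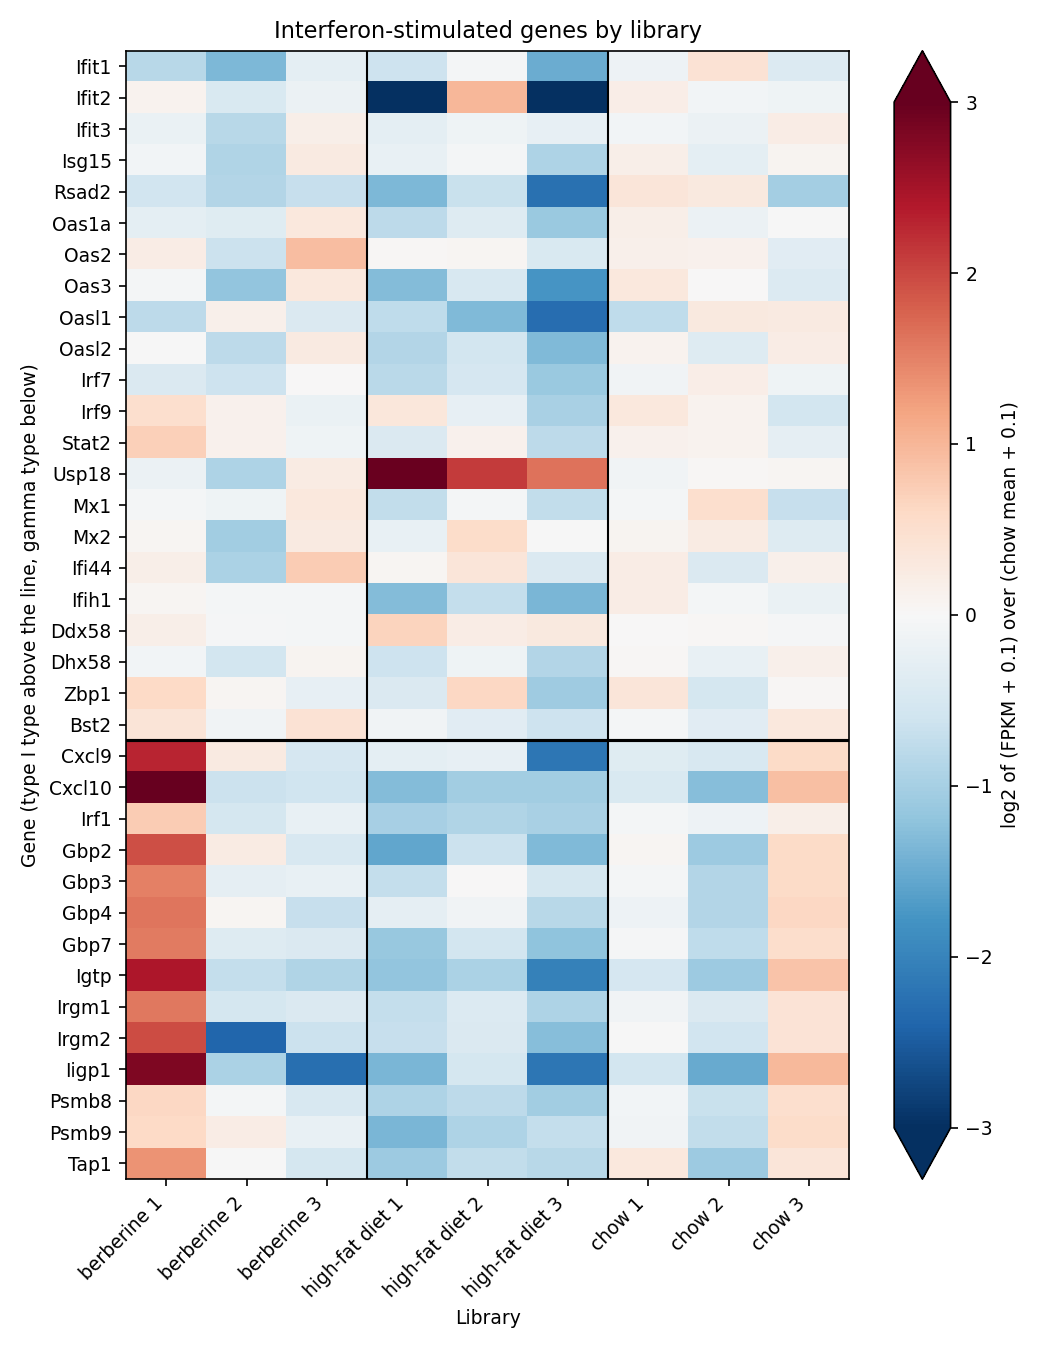
Levels of the 36 genes (rows, type I type above and gamma type below) in the 9 libraries (columns, berberine, high-fat diet and chow), coloured by the log2 of the FPKM plus 0.1 over the chow mean plus 0.1. Berberine replicate 1 was the highest of the 9 libraries for all 14 gamma type genes, while Usp18 stood high in the 3 high-fat diet libraries.

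Comparing high-fat diet with chow, both under AOM/DSS, asks what the diet changed. Interferon-stimulated genes of both classes were mostly lower on the high-fat diet. In edgeR's quasi-likelihood test at a Benjamini-Hochberg adjusted p under 0.05 over all 14506 genes, 9 of the 36 fell, 1 rose and 26 did not pass. The calls made up 27.8% of the 36 genes, against 31.8% of all genes tested. By direction, 25% fell and 2.78% rose, against 16.6% and 15.2% of all genes. The median log2 fold change was -0.82 over the 36 genes, -0.56 over the type I type and -1.05 over the gamma type, against 0.00151 over all genes. All 14 gamma type genes and 19 of 22 type I type genes had a log2 fold change below 0; with library totals or FPKM as the scale, Ifi44 joined Usp18, Mx2 and Ddx58 above 0. The groups' FPKM ranges did not overlap for 7 genes that were lower and 2 that were higher, Usp18 and Ddx58, against 18.0% and 28.6% of all genes.

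Of the 4 sensors 1 fell, Ifih1 (25%, against 16.6% of all genes). Ifih1 encodes MDA5, which detects long viral double-stranded RNA in the cytoplasm. Ifih1 stood at 3.66, 5.55 and 3.50 FPKM in high-fat diet libraries, against 10.7, 8.79 and 7.97 FPKM in chow libraries. Every high-fat diet library was below every chow library, and Ifih1 fell by 1.24 ± 0.18 on the log2 scale (SE; edgeR adjusted p = 0.00189), a level 2.35-fold lower. Of the other sensors, none passed the test. Ddx58, which encodes the RNA sensor RIG-I, had a log2 fold change of 0.29 ± 0.14, Dhx58, which encodes the related helicase LGP2, had -0.64 ± 0.23, and Zbp1, a sensor of unusual nucleic acid structures, had -0.25 ± 0.41.

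Of the 4 signal transducers, 2 fell (50%, against 16.6% of all genes). Irf7, the transcription factor that amplifies type I interferon production, stood at 14.6, 18.0 and 11.8 FPKM in high-fat diet libraries, against 23.8, 29.5 and 23.2 FPKM in chow libraries. Its groups did not overlap, and it fell by 0.92 ± 0.22 on the log2 scale (edgeR adjusted p = 0.0147). Irf1, a transcription factor induced by interferon gamma, stood at 24.2, 26.0 and 24.6 FPKM in high-fat diet libraries, against 47.0, 43.5 and 55.2 FPKM in chow libraries. The high-fat diet libraries lay close together and below all chow libraries, with a log2 fold change of -1.08 ± 0.28 (edgeR adjusted p = 0.0200). Irf9 and Stat2, partners in the type I signalling complex, had log2 fold changes of -0.33 ± 0.34 and -0.45 ± 0.27 and did not pass.

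Among the 13 effectors against viral RNA and replication, 4 fell (30.8%, against 16.6% of all genes) and none rose. Oas1a, Oasl1 and Oasl2 belong to the oligoadenylate synthetase family, whose enzymes make the short oligoadenylates that activate the RNA-degrading enzyme RNase L. Oas1a stood at 24.3, 32.2 and 19.4 FPKM in high-fat diet libraries, against 47.2, 37.2 and 41.6 FPKM in chow libraries, with a log2 fold change of -0.86 ± 0.23 (edgeR adjusted p = 0.0230). Oasl2 stood at 6.28, 7.95 and 4.58 FPKM in high-fat diet libraries, against 12.5, 8.85 and 13.6 FPKM in chow libraries, with a log2 fold change of -1.02 ± 0.30 (edgeR adjusted p = 0.0310). Neither gene overlapped between groups. Oasl1, a synthetase-like protein that in mice restrains translation of Irf7, stood at 14.4, 9.76 and 4.98 FPKM in high-fat diet libraries, against 14.4, 30.0 and 29.5 FPKM in chow libraries, with a log2 fold change of -1.48 ± 0.44 (edgeR adjusted p = 0.0312). Rsad2, or viperin, which makes a nucleotide that stops viral RNA synthesis, averaged 1.80 ± 0.97 FPKM in high-fat diet libraries and 4.52 ± 2.04 FPKM in chow libraries (SD, n = 3 each), with an edgeR adjusted p of 0.0414. For Oasl1 and Rsad2, 1 library of each group overlapped the other group.

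The Ifit and Mx genes did not pass. Ifit1, which binds viral RNA lacking the host cap structure, stood at 5.57, 8.30 and 3.01 FPKM in high-fat diet libraries, against 7.78, 11.7 and 6.54 FPKM in chow libraries, with a log2 fold change of -0.77 ± 0.42. Mx1, a GTPase that traps viral nucleoproteins, averaged 1.71 ± 0.53 FPKM in high-fat diet libraries and 2.40 ± 0.99 FPKM in chow libraries (SD, n = 3 each), with a log2 fold change of -0.63 ± 0.36. Ifit2, of the same family as Ifit1, stood at 0.266, 11.6 and 0.286 FPKM in high-fat diet libraries, against 6.62, 5.46 and 5.28 FPKM in chow libraries. High-fat diet replicate 2 was the highest of all 9 libraries for Ifit2 while the other 2 were the lowest, and the gene was chosen for mention after its values were seen. Over the 9 libraries its log2 fold change was -0.66 ± 1.17, and it was -4.49 when high-fat diet replicate 2 was left out (edgeR adjusted p = 0.000286).

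Usp18 was the exception. Its protein removes the ubiquitin-like modifier Isg15 from target proteins and restrains signalling at the type I receptor. Usp18 stood at 21.5, 11.7 and 8.41 FPKM in high-fat diet libraries, against 2.46, 2.74 and 2.80 FPKM in chow libraries. All 3 high-fat diet libraries were above every library of the other groups, and Usp18 rose by 2.25 ± 0.40 on the log2 scale (edgeR adjusted p = 0.00411), a 4.74-fold difference. Isg15 itself stood at 31.3, 34.9 and 19.1 FPKM in high-fat diet libraries, against 41.0, 29.5 and 38.6 FPKM in chow libraries; its ranges overlapped and its log2 fold change was -0.48 ± 0.31. Usp18 shares 15715 bases with the antisense gene Gm44148, whose mean over the 9 libraries was 0.849 FPKM; the libraries mark strand, but the counting setting is not given in the sources used here.

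Of the gamma type genes, Irf1 and both immunoproteasome subunits fell, 3 of 14 (21.4%, against 16.6% of all genes). Psmb8 and Psmb9 encode catalytic subunits of the immunoproteasome, which cuts proteins into peptides for display. Psmb8 stood at 13.6, 14.8 and 12.4 FPKM in high-fat diet libraries, against 24.5, 16.2 and 36.4 FPKM in chow libraries, with a log2 fold change of -1.03 ± 0.31 (edgeR adjusted p = 0.0347). Psmb9 stood at 4.80, 6.59 and 7.66 FPKM in high-fat diet libraries, against 11.7, 7.53 and 18.7 FPKM in chow libraries, with a log2 fold change of -1.10 ± 0.33 (edgeR adjusted p = 0.0338). Psmb8 did not overlap between groups, and 1 chow library of Psmb9 fell within the high-fat diet range. Tap1, which carries peptides into the endoplasmic reticulum and whose gene overlaps Psmb9 by 212 bases on the other strand, had a log2 fold change of -0.99 ± 0.49 and did not pass.

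None of the 4 guanylate-binding proteins, 4 immunity-related GTPases or 2 chemokines passed. Gbp2, a GTPase that coats and disrupts vacuoles of intracellular microbes, stood at 6.21, 11.7 and 7.27 FPKM in high-fat diet libraries, against 19.2, 8.69 and 27.5 FPKM in chow libraries, with a log2 fold change of -1.25 ± 0.61. Irgm1, a regulatory GTPase of the Irgm family, stood at 6.42, 8.01 and 5.53 FPKM in high-fat diet libraries, against 9.81, 7.89 and 14.2 FPKM in chow libraries, with a log2 fold change of -0.79 ± 0.52. Cxcl9, a chemokine that attracts activated T cells, stood at 1.18, 1.21 and 0.246 FPKM in high-fat diet libraries, against 1.11, 1.02 and 2.23 FPKM in chow libraries, with a log2 fold change of -0.85 ± 0.79. In each of these the groups overlapped, and chow replicate 3 was the highest chow library for all 14 gamma type genes. Without chow replicate 3 the gamma type median was -0.65, and none of the 14 was called.

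The count of 9 genes that fell was 2 without high-fat diet replicate 3, 3 without high-fat diet replicate 1, and 4 without chow replicate 1 or chow replicate 3; of all genes, 13.8%, 13.0%, 13.4% and 14.9% were lower in these 4 fits, in the order given. Usp18 and Ifih1 passed in all 9 of these leave-one-out fits. Irf7 lost its call only without high-fat diet replicate 3 (edgeR adjusted p = 0.0502). Irf1 lost it without any of the high-fat diet libraries or without chow replicate 3 (edgeR adjusted p 0.0514 to 0.0586), and Oas1a when high-fat diet replicate 1, high-fat diet replicate 3 or chow replicate 1 was left out (0.0653 to 0.0739). Oasl1 lost it without high-fat diet or chow replicate 2 or 3 (0.0750 to 0.0897), and Oasl2 without high-fat diet or chow replicate 1 or 3 (0.0767 to 0.0957). Psmb9, Psmb8 and Rsad2 lost theirs in 5, 6 and 7 of the 9 fits, with edgeR adjusted p up to 0.102, 0.101 and 0.115. Without TMM scaling the background itself moved to 19.4% higher and 13.0% lower, against 15.2% and 16.6% with it.

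**Figure D2:**
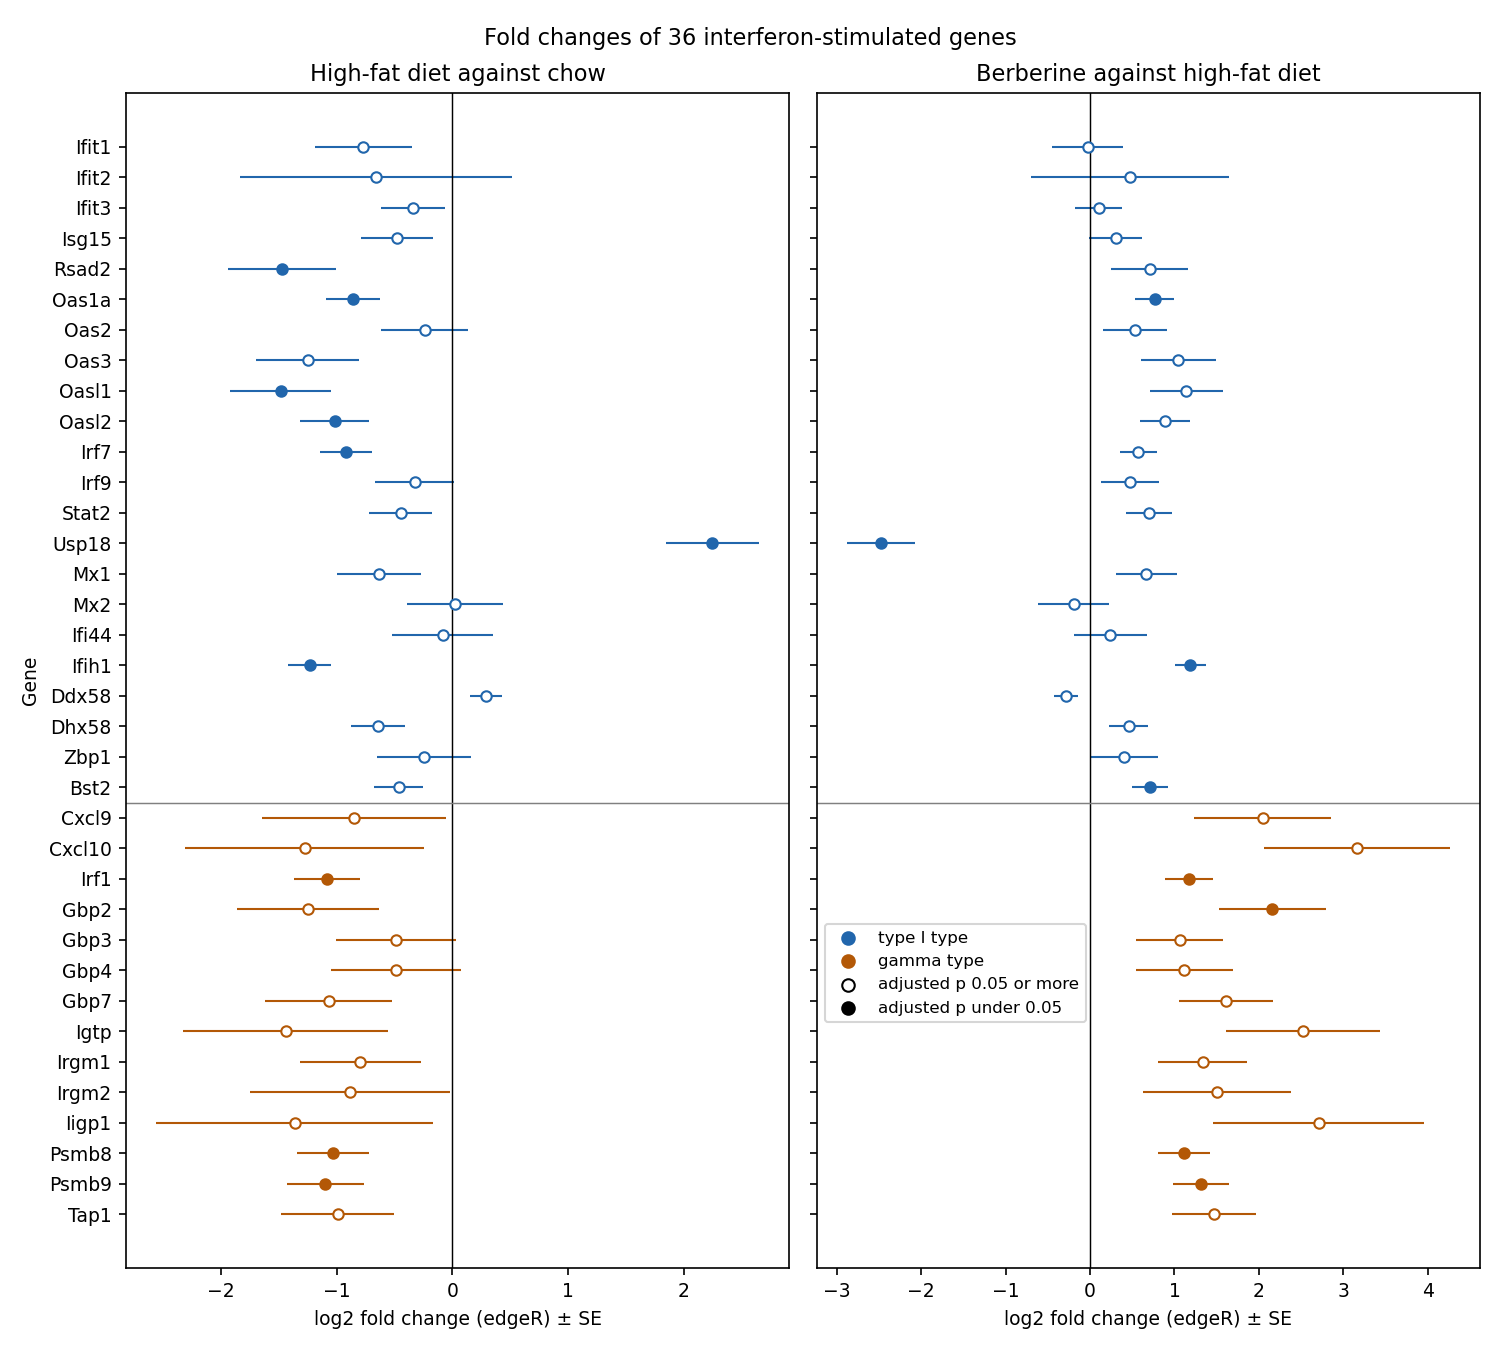
Log2 fold changes with SE from edgeR for the 36 genes (rows), high-fat diet over chow on the left and berberine over high-fat diet on the right; filled points have an adjusted p under 0.05. Most points lie below 0 on the left and above 0 on the right, with Usp18 at 2.25 and -2.48 the exception; both panels share the high-fat diet libraries.

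Comparing berberine with high-fat diet asks what differed in the treated group. Most of these genes were higher in berberine libraries, the gamma type by more. In edgeR's test 7 of the 36 rose, 1 fell and 28 did not pass. The calls made up 22.2% of the 36 genes, against 30.7% of all 14506 genes. By direction, 19.4% rose and 2.78% fell, against 15.8% and 14.9% of all genes. At an unadjusted edgeR p under 0.05, 18 were higher and 1 was lower. The share of all genes at that looser rule was not counted, so this count has no background beside it. The median log2 fold change was 0.83 over the 36 genes, 0.50 over the type I type and 1.49 over the gamma type, against -0.00692 over all genes. All 14 gamma type genes and 18 of 22 type I type genes were above 0; the exceptions were Ifit1, Usp18, Mx2 and Ddx58, joined by Ifit3 with library totals or on the log2(FPKM + 1) scale. The groups did not overlap for 11 genes that were higher and 2 that were lower, against 20.7% and 30.8% of all genes. This comparison and the previous one use the same high-fat diet libraries, so a high or low value there moves both in opposite directions.

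Of the 4 sensors 1 rose, Ifih1, and of the 4 signal transducers 1 rose, Irf1 (25% each, against 15.8% of all genes). Ifih1 stood at 9.51, 8.74 and 8.77 FPKM in berberine libraries, against the 3.66 to 5.55 FPKM of high-fat diet libraries, with a log2 fold change of 1.19 ± 0.18 (edgeR adjusted p = 0.00220). Irf1 stood at 82.7, 33.9 and 41.6 FPKM in berberine libraries, against 24.2 to 26.0 FPKM in high-fat diet libraries, with a log2 fold change of 1.17 ± 0.28 (edgeR adjusted p = 0.0152). Both genes separated the groups fully, and both passed without any 1 library. Irf7 stood at 19.0, 16.5 and 25.7 FPKM in berberine libraries, overlapping the 11.8 to 18.0 FPKM of high-fat diet libraries, and did not pass (log2 fold change 0.57 ± 0.22).

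Among the effectors, Oas1a and Bst2 rose (15.4%, against 15.8% of all genes). Oas1a stood at 34.4, 32.7 and 52.2 FPKM in berberine libraries, against 24.3, 32.2 and 19.4 FPKM in high-fat diet libraries, with a log2 fold change of 0.76 ± 0.23 (edgeR adjusted p = 0.0364). Bst2, or tetherin, which holds budding virus particles at the cell surface, stood at 47.7, 34.0 and 49.3 FPKM in berberine libraries, against 33.8, 28.7 and 23.5 FPKM in high-fat diet libraries, with a log2 fold change of 0.71 ± 0.21 (edgeR adjusted p = 0.0340). For both genes the lowest berberine library lay just above the highest high-fat diet library. Ifit1 and Isg15 had log2 fold changes of -0.03 ± 0.42 and 0.31 ± 0.31, with overlapping ranges, and Mx1 had 0.67 ± 0.36. Usp18 fell to 2.36, 1.35 and 3.18 FPKM in berberine libraries, against 21.5, 11.7 and 8.41 FPKM in high-fat diet libraries, with a log2 fold change of -2.48 ± 0.41 (edgeR adjusted p = 0.00285), a level 5.56-fold lower. Usp18 thus moved opposite to the other called genes in both comparisons.

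Among the gamma type genes, Irf1, Gbp2, Psmb8 and Psmb9 rose, 4 of 14 (28.6%, against 15.8% of all genes). Gbp2 stood at 71.1, 22.0 and 13.1 FPKM in berberine libraries, against 6.21, 11.7 and 7.27 FPKM in high-fat diet libraries, with a log2 fold change of 2.16 ± 0.63 (edgeR adjusted p = 0.0316). Psmb8 stood at 39.7, 24.6 and 18.5 FPKM in berberine libraries, against 12.4 to 14.8 FPKM in high-fat diet libraries, with a log2 fold change of 1.11 ± 0.31 (edgeR adjusted p = 0.0273). Psmb9 stood at 19.0, 14.7 and 10.8 FPKM in berberine libraries, against 4.80 to 7.66 FPKM in high-fat diet libraries, with a log2 fold change of 1.31 ± 0.33 (edgeR adjusted p = 0.0177). None of the 3 overlapped between groups, and in each berberine replicate 1 was the highest.

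The 3 largest increases, of Cxcl10, Iigp1 and Igtp, did not pass, and in each of them berberine replicate 1 lay far above the other berberine libraries. Cxcl10, a chemokine that shares its receptor with Cxcl9, stood at 30.6, 1.903 and 1.947 FPKM in berberine libraries, against 1.16, 1.43 and 1.40 FPKM in high-fat diet libraries, with a log2 fold change of 3.16 ± 1.10 (edgeR adjusted p = 0.0583). Cxcl9 stood at 7.48, 1.776 and 1.0003 FPKM in berberine libraries, against 0.246 to 1.21 FPKM in high-fat diet libraries, with a log2 fold change of 2.05 ± 0.82. Among the immunity-related GTPases, Igtp, also named Irgm3, stood at 116, 13.2 and 11.6 FPKM in berberine libraries, against 9.50, 11.2 and 5.20 FPKM in high-fat diet libraries, with a log2 fold change of 2.52 ± 0.92 (edgeR adjusted p = 0.0674). Apart from berberine replicate 1, the berberine libraries lay just above the high-fat diet range for Cxcl10 and Igtp, and berberine replicate 3 lay within it for Cxcl9. DESeq2, which called 14 of the 36 genes and 19.2% of all genes higher, called Cxcl9 and Igtp among them. Iigp1, an effector GTPase that is loaded onto microbial vacuoles, stood at 30.2, 2.16 and 0.804 FPKM in berberine libraries, against 1.57, 2.92 and 0.857 FPKM in high-fat diet libraries. Irgm2 stood at 51.2, 2.42 and 8.29 FPKM in berberine libraries, against 8.14, 9.66 and 5.31 FPKM in high-fat diet libraries. Irgm1 stood at 32.2, 7.36 and 7.85 FPKM in berberine libraries, against 5.53 to 8.01 FPKM in high-fat diet libraries. All 3 overlapped, none passed, and Irgm2 and Igtp overlap by 7974 bases on the same strand, so reads could be split between them. Cxcl10, Igtp, Iigp1 and Irgm2 lie outside the rule for named genes in this comparison and were chosen after their values were seen.

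**Figure D3:**
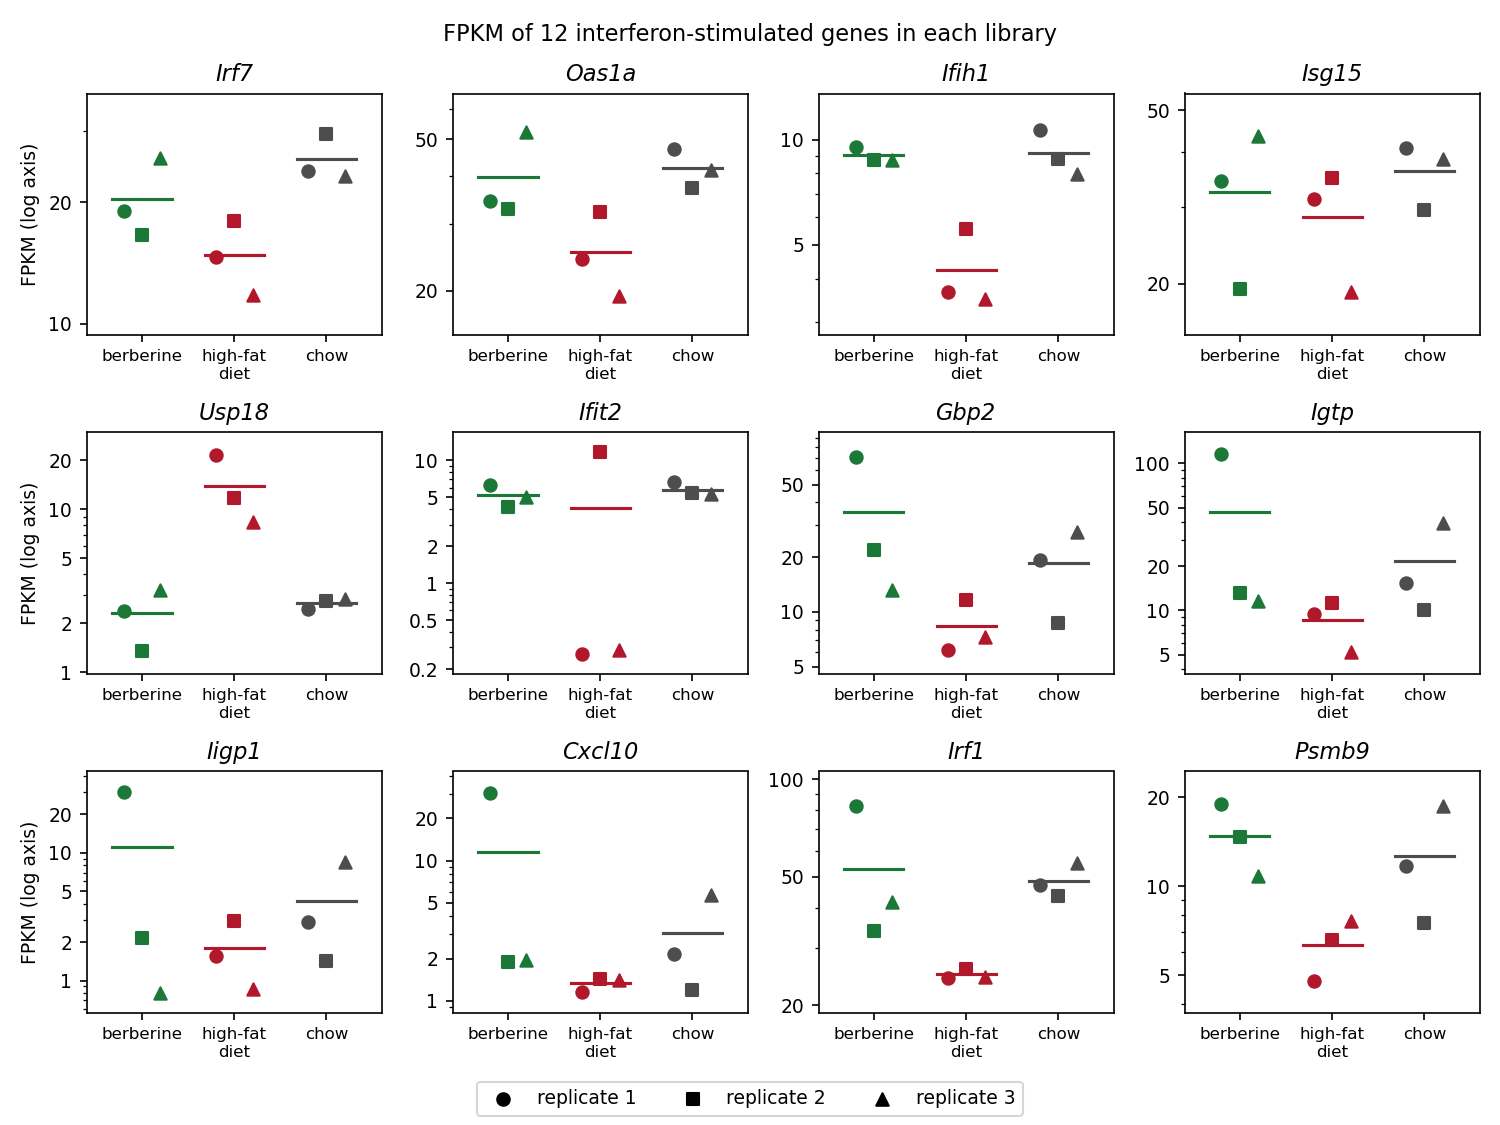
FPKM of 12 interferon-stimulated genes in each library on log axes, with berberine, high-fat diet and chow from left to right; symbols mark replicates and bars the group means. Gbp2, Igtp, Iigp1 and Cxcl10 show berberine replicate 1 far above the other berberine libraries, while Usp18 lies between 8.41 and 21.5 FPKM in high-fat diet libraries and at 3.18 FPKM or below in the others.

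Without berberine replicate 1, 3 genes rose (Oas1a, Ifih1 and Irf1) and Usp18 fell, against a background of 23.9% of all genes. The gamma type median was then 0.65 and the type I type median 0.44, and 12 of 14 gamma type genes were above 0; Irgm2 and Iigp1 were at -0.39 and -0.15, while with all libraries they were 2.84-fold and 6.54-fold higher. Gbp2 then had a log2 fold change of 1.18 ± 0.45 (edgeR adjusted p = 0.0993), a 2.26-fold difference in place of 4.47-fold. Cxcl10 had 0.64 ± 0.56 and Igtp 0.65 ± 0.53. Cxcl9 had 0.78 ± 0.66, against 2.05 with all libraries, and Irgm1 0.31 ± 0.24, against 1.33. Psmb8 and Psmb9 had 0.78 ± 0.28 and 1.11 ± 0.35 (edgeR adjusted p = 0.0847 and 0.0569), and Bst2 had 0.66 ± 0.25 (edgeR adjusted p = 0.0898).

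Other libraries also decided calls. The count of 7 genes that rose was 3 without berberine replicate 1 or high-fat diet replicate 3, 4 without high-fat diet replicate 1, 9 without berberine replicate 3 and 10 without berberine replicate 2; of all genes, 12.1%, 13.2%, 12.7%, 12.1% and 10.9% were higher in these 5 fits, in the order given. Oas1a lost its call when berberine replicate 3, or replicate 1 or 3 of high-fat diet or chow, was left out (edgeR adjusted p 0.0504 to 0.122), and Bst2 without berberine replicate 1 or 3, high-fat diet replicate 2 or 3, or else chow replicate 1 (0.0544 to 0.120). Gbp2 and Psmb8 also lost theirs without any 1 high-fat diet library, Psmb8 without berberine replicate 2, and Psmb9 without high-fat diet replicate 1 or 2. With the fits without berberine replicate 1 included, edgeR adjusted p for the lost calls of these genes ran from 0.0501 to 0.0993. The highest was that of Gbp2 without berberine replicate 1. Without TMM scaling the background was 12.8% higher and 18.5% lower, against 15.8% and 14.9% with it.

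**Figure D4:**
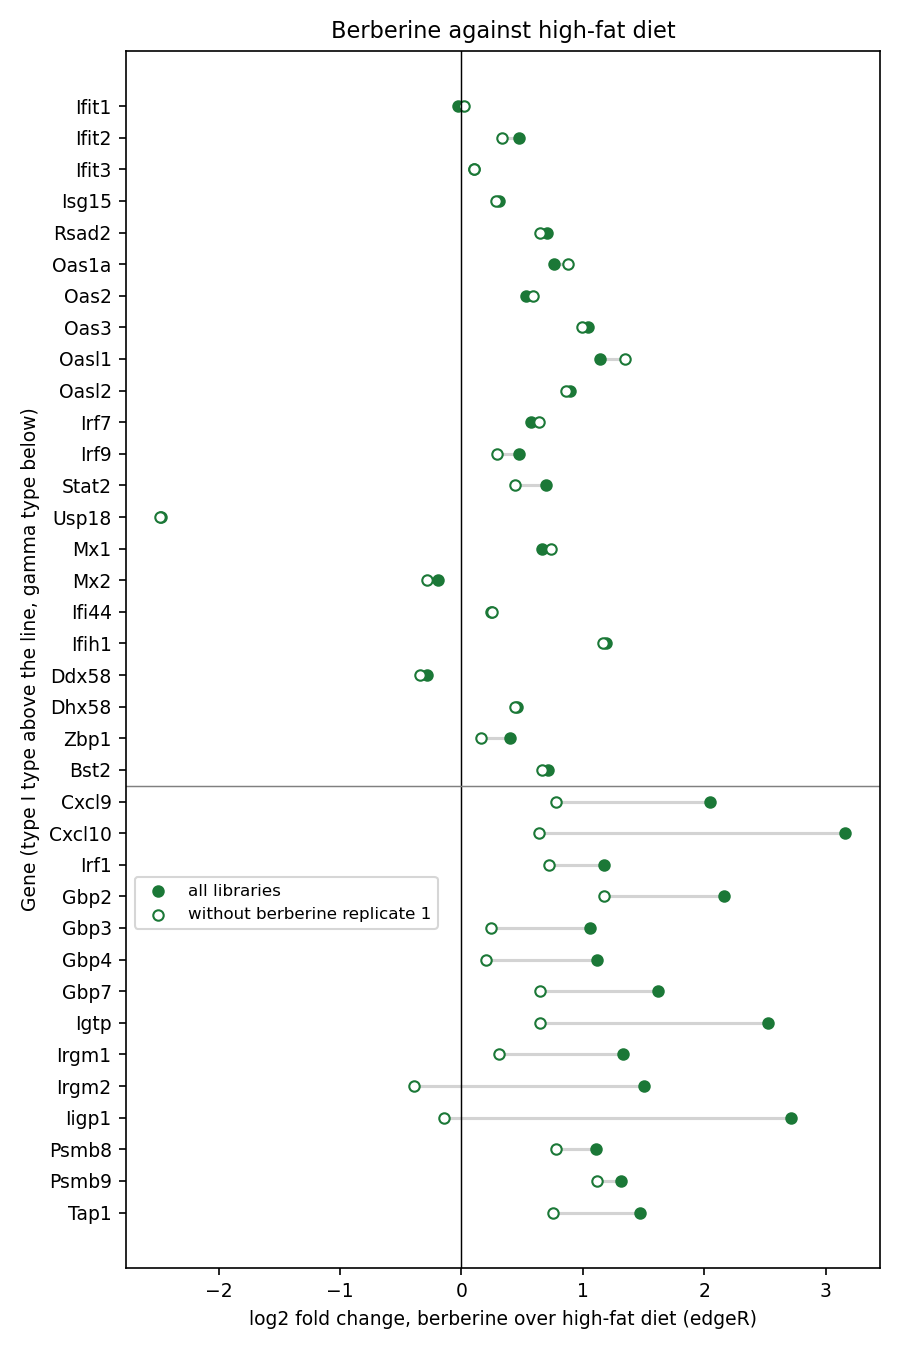
Log2 fold changes of berberine over high-fat diet from edgeR for the 36 genes, with all libraries (filled) and without berberine replicate 1 (open). The gamma type points, below the line, move left, Cxcl10 to 0.64 without that library, against 3.16 with it, and the type I type points mostly stay in place.

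Comparing berberine with chow, none of the 36 genes passed edgeR's test in either direction, and none had an unadjusted p under 0.05. DESeq2 and limma also called none. Of all 14506 genes 0.0483% were called, 0.0414% higher and 0.00689% lower. The median log2 fold change was -0.15 over the type I type and 0.60 over the gamma type, against -0.00221 over all genes. No gene's ranges separated the groups, against 17.2% of all genes. Ifih1 stood at 8.74 to 9.51 FPKM in berberine libraries and at 7.97 to 10.7 FPKM in chow libraries, with a log2 fold change of -0.05 ± 0.18. Usp18 stood at 1.35 to 3.18 FPKM in berberine libraries and at 2.46 to 2.80 FPKM in chow libraries, with a log2 fold change of -0.23 ± 0.39. A p that misses the threshold does not show that the groups are alike.

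The type I type genes with the lowest p were Ifit1, at 4.85, 3.35 and 7.05 FPKM in berberine libraries against 7.78, 11.7 and 6.54 FPKM in chow libraries, with a log2 fold change of -0.80 ± 0.42, then Rsad2 at -0.77 ± 0.46 and Irf7 at -0.35 ± 0.22. Those of the gamma type were Cxcl10 at 1.89 ± 1.04, Cxcl9 at 1.19 ± 0.79 and Gbp2 at 0.91 ± 0.61. All 14 gamma type genes were above 0 with edgeR's scaling, and 13 on the FPKM scale, where Irgm2 was below. Without berberine replicate 1, 13 of the 14 were below 0 and Psmb9 above, with a median of -0.32; Cxcl10 was then at -0.64, and Cxcl9 and Gbp2 were both at -0.07.

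The gamma type genes stood highest in berberine replicate 1 and chow replicate 3, which was not so for most type I type genes. Averaged as log2(FPKM + 1) over the 14 gamma type genes, berberine libraries stood at 5.02, 3.07 and 2.91, high-fat diet libraries at 2.58, 2.90 and 2.44, and chow libraries at 3.30, 2.72 and 3.94. Averaged over the 22 type I type genes, they stood at 3.10, 2.73 and 3.20 in berberine libraries, 2.76, 3.09 and 2.33 in high-fat diet libraries, and 3.19, 3.11 and 3.03 in chow libraries. Berberine replicate 1 was thus far above the other libraries in the gamma type mean and within the range of the others in the type I type mean. It was the highest of the 9 libraries for 14 of 14 gamma type genes and for 2 of 22 type I type genes, Irf9 and Stat2, and for 8.94% of all genes. The type I type average minus the gamma type average was -1.92 in berberine replicate 1 and ran from -0.91 in chow replicate 3 to 0.39 in chow replicate 2 among the other libraries. These averages are descriptions.

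Within the berberine group the highest library was a median of 4.72 times the lowest for gamma type genes, from 1.76 times up to 37.5 times for Iigp1. The same ratio was 1.80 for type I type genes and 1.31 for all genes. In chow libraries the median ratio was 2.62 for gamma type genes and 1.48 for type I type genes, and chow replicate 3 was the highest for 14 of 14 gamma type genes. In high-fat diet libraries the ratios were 1.63 and 1.80, and replicate 2 was the highest for 13 of 14 gamma type and 17 of 22 type I type genes. High-fat diet replicate 3 was the lowest of all 9 libraries for 14 of 22 type I type genes. In berberine libraries, replicate 3 was the highest for 14 of 22 type I type genes and replicate 1 for 7. The matching shares of all genes, highest within a group or lowest of all 9 libraries, were not counted. These counts by library are thus descriptions.

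**Figure D5:**
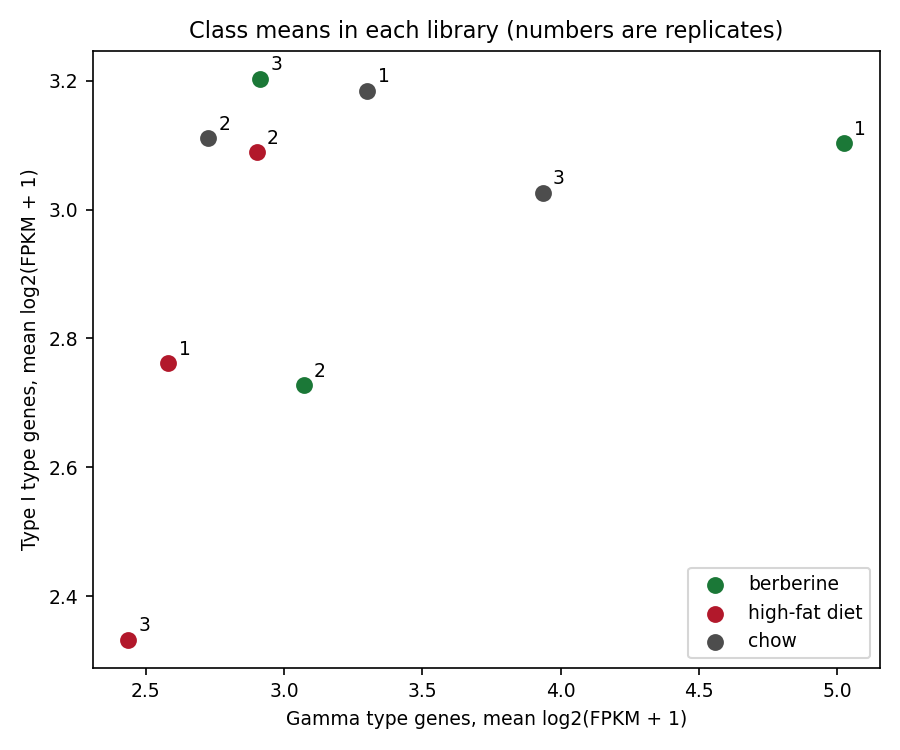
Mean log2(FPKM + 1) of the 22 type I type genes against that of the 14 gamma type genes in each library; colours mark groups and numbers replicates. Berberine replicate 1 lies alone at 5.02 on the gamma type axis, followed by chow replicate 3 at 3.94, while high-fat diet replicate 3 is lowest on both axes.

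The difference between the class medians of log2 fold changes, type I type minus gamma type, was 0.49 for high-fat diet against chow, -0.99 for berberine against high-fat diet and -0.74 for berberine against chow. Without berberine replicate 1 the last 2 were -0.21 and 0.18. Restricted to the families named in the rule, 10 type I type genes (Ifit, Oas and Mx) and 9 gamma type genes (Gbp, Irgm and Iigp1 with Cxcl9), the medians were 0.60 and 1.62 for berberine against high-fat diet and -0.72 and -0.89 for high-fat diet against chow. Without berberine replicate 1 the family medians for berberine against high-fat diet were 0.66 for the type I type and 0.31 for the gamma type, so their order turned round. For high-fat diet against chow, the order also turned round without chow replicate 3. The family medians were then -0.88 for the type I type and -0.54 for the gamma type. The class difference was not tested, because the 36 genes are not replicates of a condition.

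Interferon transcripts themselves were at or near the detection limit. None of 21 interferon genes reached the mean of 1 FPKM. Of 18 type I interferon genes, 10 had a count of 0 in all 9 libraries and the highest count in any library was 19, with low counts piling up at multiples of 4. Ifnb1, which encodes interferon beta, had 7 counts in chow replicate 2 and 0 elsewhere. Ifng, which encodes interferon gamma, was at 0.716, 0.0629 and 0.193 FPKM in berberine libraries, at 0.0397 FPKM in high-fat diet replicate 2 and 0.0754 FPKM in chow replicate 3, and at 0 in the other 4 libraries. The 54 counts in berberine replicate 1 were the most of any library, and this is the library in which the gamma type genes were highest. Berberine replicate 3 had 18 Ifng counts and a gamma type mean of 2.91, and chow replicate 3 had 8 counts and a gamma type mean of 3.94. Counts this low, which pile up at multiples of 4, are too few to order the libraries. At these counts Ifng was not tested, and its relation to the gamma type genes was not tested either.

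The counts of the lists that follow stand against 15.2% of all genes higher and 16.6% lower on the high-fat diet relative to chow, and 15.8% higher and 14.9% lower in berberine relative to high-fat diet libraries. Of 6 interferon receptor genes, none passed between high-fat diet and chow and 1 rose between berberine and high-fat diet. Ifngr1, the ligand-binding subunit of the gamma receptor, stood at 62.7, 83.3 and 59.1 FPKM in berberine libraries, against 16.8, 38.0 and 15.0 FPKM in high-fat diet libraries, with a log2 fold change of 1.66 ± 0.32 (edgeR adjusted p = 0.00606). Berberine replicate 2, not 1, was the highest for Ifngr1. Among 10 genes for kinases, signal transducers and inhibitors, Jak1, a kinase of all interferon receptors, fell and Socs3, an inhibitor of cytokine signalling induced mainly by Stat3, rose on the high-fat diet (log2 fold changes -0.48 ± 0.14 and 2.19 ± 0.46, edgeR adjusted p = 0.0279 and 0.00802). In berberine relative to high-fat diet libraries Jak1 and Ptpn6, a phosphatase that dampens such signalling, rose by 0.73 and 1.13 on the log2 scale, and Socs3 fell by 1.44. Socs1, an inhibitor of interferon signalling, stood at 9.84, 3.45 and 3.17 FPKM in berberine libraries, 3.13, 2.97 and 2.36 FPKM in high-fat diet libraries and 2.77, 2.37 and 6.32 FPKM in chow libraries. Socs1 did not pass in any comparison, and it was highest in berberine replicate 1 and next in chow replicate 3, as the gamma type mean was.

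Of 14 tested sensors, adaptors and interferon regulatory factors upstream, 1 rose and 5 fell on the high-fat diet relative to chow (7.14% and 35.7%, against 15.2% and 16.6% of all genes), and 5 rose and 1 fell in berberine relative to high-fat diet libraries (35.7% and 7.14%, against 15.8% and 14.9%). Without berberine replicate 1, 2 rose and 1 fell, against 12.1% of all genes higher and 11.8% lower in that fit. Sting1, the adaptor of cytoplasmic DNA sensing, was the one that went the other way: it stood at 12.1, 7.74 and 5.92 FPKM in berberine libraries, 41.5, 41.0 and 23.0 FPKM in high-fat diet libraries and 8.45, 3.84 and 9.66 FPKM in chow libraries. It rose on the high-fat diet relative to chow by 2.15 ± 0.38 on the log2 scale (edgeR adjusted p = 0.00393). Mavs, the adaptor used by Ifih1 and Ddx58, fell on the high-fat diet by 0.60 ± 0.11 on the log2 scale and rose in berberine relative to high-fat diet libraries by 0.88 ± 0.11 (edgeR adjusted p = 0.00529 and 0.000999). Irf2, a factor that competes with Irf1 for the same sites, fell on the high-fat diet by 0.71, and Ikbke, a kinase that activates interferon regulatory factors, rose in berberine relative to high-fat diet libraries by 0.44.

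Other genes of each type were listed alongside. Of 30 other type I type genes, 1 rose and 13 fell on the high-fat diet (median log2 fold change -0.60), and 14 rose and 1 fell in berberine relative to high-fat diet libraries (0.69). The genes that fell made up 43.3% of the list, against 16.6% of all genes, and those that rose in berberine libraries 46.7%, against 15.8%. Without berberine replicate 1, 9 of the 30 rose, against 12.1% of all genes. The gene that went the other way both times was Ifitm3, which blocks entry of enveloped viruses: it stood at 158, 103 and 94.3 FPKM in berberine libraries, 1507, 1048 and 955 FPKM in high-fat diet libraries and 123, 80.8 and 139 FPKM in chow libraries. Ifitm3 rose on the high-fat diet relative to chow by 3.24 ± 0.28 on the log2 scale (edgeR adjusted p = 0.000218). Sp100, a nuclear body protein, had log2 fold changes of -1.17 on the high-fat diet relative to chow and 1.43 in berberine relative to high-fat diet libraries. Ddx60, a helicase, had -2.17 and 1.19, and Ifi27l2a had -1.82 and 2.52; all of these passed, and Ddx60 was not among the genes that rose without berberine replicate 1. Of 24 tested other gamma type genes, 7 fell on the high-fat diet (median -0.72), and 13 rose in berberine relative to high-fat diet libraries (1.19), with none the other way. These were 29.2% and 54.2% of the genes tested, against 16.6% and 15.8% of all genes. Without berberine replicate 1, 9 rose, against 12.1% of all genes, and the list median was 0.66. B2m, the light chain of MHC class I, stood at 956, 855 and 841 FPKM in berberine libraries, 462, 422 and 315 FPKM in high-fat diet libraries and 736, 808 and 1039 FPKM in chow libraries. Unlike the Gbp and Irgm genes, B2m varied little within the berberine group, and it fell by 1.23 ± 0.18 on the log2 scale on the high-fat diet relative to chow (edgeR adjusted p = 0.00170). H2-K1 and H2-D1, heavy chains of MHC class I, had log2 fold changes of -0.74 and -0.68 on the high-fat diet relative to chow and of 0.89 and 0.59 in berberine relative to high-fat diet libraries, and Ciita, the master regulator of MHC class II, had -1.47 and 1.92; all passed. None of these lists had a gene past the threshold between berberine and chow.

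T and natural killer cell markers moved with these genes. Of 14 markers 11 were tested; 8 fell and 1 rose on the high-fat diet relative to chow, and 9 rose and 1 fell in berberine relative to high-fat diet libraries. The 8 were 72.7% of the markers tested, against 16.6% of all genes lower, and the 9 were 81.8%, against 15.8% higher. Without berberine replicate 1, 7 rose, against 12.1% of all genes. Their summed level was 42.2 to 57.8 FPKM in berberine libraries, 15.1 to 53.7 FPKM in high-fat diet libraries and 29.1 to 58.0 FPKM in chow libraries, and no marker was at 0 throughout a group. Gzmb, which encodes the cytotoxic protease granzyme B, went the other way, at 0.627, 0.309 and 0.110 FPKM in berberine libraries, 35.8, 7.05 and 1.68 FPKM in high-fat diet libraries and 0.340, 1.99 and 0.374 FPKM in chow libraries. Cd3e, part of the T cell receptor complex, stood at 2.87, 1.89 and 1.55 FPKM in berberine libraries, 0.310, 0.643 and 0.337 FPKM in high-fat diet libraries and 1.61, 1.18 and 2.85 FPKM in chow libraries. Within each of the berberine and chow groups, the library highest for gamma type genes was also the highest for Cd3e. In the high-fat diet group, replicate 2 was the highest for Cd3e and for 13 of 14 gamma type genes, with Cd3e below 1 FPKM throughout. As a mean of log2(FPKM + 1) over the 14 markers, berberine replicate 1 and chow replicate 3 were again the highest of their groups, at 1.98 and 1.96. In the high-fat diet group this mean was highest in replicate 1, at 1.24, against 1.11 in replicate 2. Replicate 1 also held the highest Gzmb value, 35.8 FPKM. The B and plasma cell markers summed to 484 to 817 FPKM in berberine libraries, 189 to 299 FPKM in high-fat diet libraries and 159 to 531 FPKM in chow libraries, and 5 of 7 rose in berberine relative to high-fat diet libraries. The plasmacytoid dendritic cell markers summed to 592 to 1170 FPKM in berberine libraries, 54.7 to 146 FPKM in high-fat diet libraries and 426 to 939 FPKM in chow libraries. Most of each sum was Klk1, a kallikrein, at 550 to 1148 FPKM in berberine libraries, 29.6 to 104 FPKM in high-fat diet libraries and 394 to 922 FPKM in chow libraries. As a mean of log2(FPKM + 1) over the 8 markers found in the table, the list stood at 2.58 to 2.71 in berberine libraries, 1.91 to 2.26 in high-fat diet libraries and 2.18 to 2.67 in chow libraries, so that chow replicate 2 lay within the high-fat diet range. Of 6 tested, 2 fell (Klk1 and Pacsin1) and 1 rose (Tcf4) on the high-fat diet relative to chow. In berberine relative to high-fat diet libraries 2 rose, again Klk1 and Pacsin1. The list thus did not move in 1 direction, and its sum describes Klk1 more than the list. The part of these cells in the results was not tested.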

How the data were processed

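The libraries were made from poly(A) RNA with a strand-marking second-strand step, per the labels' protocols. The deposited table holds an estimated count and an FPKM value per gene and library, per the file headers. The submitters' processing notes name build GRCm38, the trimmer cutadapt 1.9, the aligner HISAT2 2.0.4, the assembler StringTie 1.3.4d, and UMI-tools, edgeR and DESeq2, with no order; the setting for strand is not given in the sources used here. Deposited counts are whole numbers that pile up at multiples of 4 when low. Deposited FPKM values listed at 0.0001, where the count is 0, are printed as 0.

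Estimated counts of all 9 libraries were fitted with edgeR 4.0.16 (TMM, quasi-likelihood, group only) in R 4.3.3 on the 14506 genes whose mean FPKM was 1 or more. P-values were adjusted by Benjamini-Hochberg over all of them, and the script was tested on simulated data. SE is the log2 fold change over the square root of F. Alternatives used DESeq2 1.42.0 and limma 3.58.1 on log2(FPKM + 1). Totals ran from 51961764 to 69007117 counts. Since low counts pile up at multiples of 4, the counts may overstate the number of independent fragments and so the counting precision. How they were made is not given in the sources used here, and a fit with all counts divided by 4 was an alternative. Genes named were at most 8 per comparison and direction past the threshold by lowest p, the 3 of each class with the lowest p, 8 fixed examples of the families, and the 3 with the lowest p in each pathway list; other genes named with values were chosen after their values were seen. The 36 genes and the lists were chosen with earlier results of these data known. Genes of the Ifit, Oas, Gbp and Irgm families resemble each other, and how the authors' counting shared reads between them is not given in the sources used here. The values of 1 gene of a pathway list are not reported here.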

Additional observations from a re-analysis of the deposited data

How the results depend on the processing

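The 9 genes lower on the high-fat diet than in chow were 5 with library totals in place of TMM, 5 without a filter on low values, 5 with limma on log2(FPKM + 1), 5 with limma on log2(FPKM + 0.1), 4 with the replicate block, 11 with DESeq2 and 2 to 10 on leaving out 1 library. Of all genes, 13.0% were lower with library totals, 6.80% without a filter, 13.1% and 13.5% with limma at the pseudocounts in that order, 15.6% with the block and 20.4% with DESeq2, against 16.6% in the reported fit. The 7 genes higher in berberine than in high-fat diet libraries were 4 with library totals, 14 with DESeq2, 3 with limma at either pseudocount, 6 with the replicate block, and 3 to 10 on leaving out 1 library. Of all genes, 12.8% were higher with library totals, 19.2% with DESeq2, 12.8% and 13.1% with limma and 15.5% with the block, against 15.8%. With all counts divided by 4 the same 10 and 8 genes were called in these 2 comparisons. Same-numbered libraries correlated at -0.07 to 0.14 in their deviations from the group means, and libraries with different numbers at -0.19 to 0.17. This check cannot decide whether the numbers pair the libraries, because deviations from a mean of 3 libraries are tied to each other. Usp18 and Ifih1 kept their calls in both comparisons on leaving out any 1 library.

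For berberine against high-fat diet, the log2 fold change of Ifit1 (-0.03) was 0.077 with the replicate block and -0.38 to 0.35 on leaving out 1 library, and that of Isg15 (0.31) was -0.0041 to 0.57. For berberine against chow, leaving out 1 library gave -0.64 to 2.71 for Cxcl10, -0.072 to 1.62 for Cxcl9, -0.070 to 1.31 for Gbp2, -0.48 to 0.10 for Isg15, -0.23 to 0.44 for Mx1, -0.48 to 0.88 for Irgm1 and -0.031 to 0.60 for Psmb9. The class difference ran from 0.08 to 0.78 for high-fat diet against chow, from -1.36 to -0.21 for berberine against high-fat diet and from -1.27 to 0.18 for berberine against chow. Library totals moved the median of all genes by 0.13 for high-fat diet against chow and by -0.11 for berberine against high-fat diet. The cause of these changes was not tested. Interferon genes were too low in these libraries to compare.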
